A study of Mus musculus with 6 samples.

Results

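The IL-6 family genes followed here were Il6 and Lif, which encode secreted cytokines, and Osmr, Lifr and Il6st, which encode receptor chains. They were taken by gene symbol from per-library tables of 14701 genes, and all 5 had a row in each of the 6 libraries. RNA was sequenced from IEC 4.1, a mouse line labelled as intestinal epithelium, after 6 h with 10 ng/ml interferon-gamma (replicates 1, 2 and 4) and from control cells (replicates 2, 3 and 4), n = 3 per group. The labels give no transgene, deletion or other agent for either group. They give no time for the controls, so culture time may differ between the groups and cannot be told apart from the treatment. Nor do they say whether replicates were separate cultures, so p-values measure the spread between these libraries, which may be technical. The comparison asks how the mRNAs of these cytokines and receptor chains differ after interferon-gamma.

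Most cytokines of the IL-6 family share the signal-transducing chain gp130, the product of Il6st. IL-6 first binds its own receptor chain, encoded by Il6ra, and then gp130, while LIF joins the Lifr product to gp130 and mouse oncostatin M joins the Osmr product to gp130. The joined receptors activate Janus kinases and, above all, STAT3, and the STAT3 target Socs3 encodes an inhibitor that binds gp130 itself. In the gut these cytokines are known for roles in inflammation and in the repair of the epithelium.

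On GRCm38.p6, in RefSeq coordinates, Il6 (NCBI Gene 16193) lies on chromosome 5 from 30013114 to 30019975 and Lif (16878) on chromosome 11 from 4257568 to 4272514. Il6st (16195) lies on chromosome 13 from 112464070 to 112506860. Osmr (18414) and Lifr (16880) are neighbours on chromosome 15, from 6813568 to 6874968 and from 7090610 to 7197489, with 215641 bases and 0 protein-coding genes between them. In GENCODE M21 the longest coding transcripts have 4 exons in Il6 and Lif, 18 in Osmr, 19 in Lifr and 17 in Il6st, and no member overlaps another annotated gene. The KEGG terms deposited with the tables that all 5 share are cytokine-cytokine receptor interaction, held by 170 genes of the tables, and JAK-STAT signaling, held by 116. The 3 receptor chains share the fibronectin type III domain in the deposited Pfam terms.

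The promoter windows of the cytokine and the receptor chain that differed most between the groups are shown, from RefSeq for GRCm38.p6, as 250 bases before to 50 after an annotated start. That of Il6 is chr5:30012864-30013163 on the plus strand and that of Osmr is chr15:6874264-6874563 on the minus strand. Capitals mark matches on either strand to the motifs searched, which were GAS (TTCNNNGAA), ISRE (GAAA and GAAA with 2 bases between them), kB (GGGA and TTTCC with 1 base between them), AP-1 (TGANTCA), C/EBP (TTGNGCAA) and the CRE core (TGACGT).
Il6: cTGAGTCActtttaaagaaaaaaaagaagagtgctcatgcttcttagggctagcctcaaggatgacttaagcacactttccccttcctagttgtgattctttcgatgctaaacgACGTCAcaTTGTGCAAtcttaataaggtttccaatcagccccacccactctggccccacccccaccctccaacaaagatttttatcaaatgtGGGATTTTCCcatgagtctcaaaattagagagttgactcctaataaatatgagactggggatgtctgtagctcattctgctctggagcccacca
Osmr: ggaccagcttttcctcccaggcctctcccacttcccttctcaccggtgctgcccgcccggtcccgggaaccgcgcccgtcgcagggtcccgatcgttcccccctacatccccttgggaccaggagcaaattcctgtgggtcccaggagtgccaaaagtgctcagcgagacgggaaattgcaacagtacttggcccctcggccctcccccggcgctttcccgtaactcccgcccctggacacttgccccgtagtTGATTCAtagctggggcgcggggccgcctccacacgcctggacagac

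The Il6 window held 4 matches: AP-1 at -249 to -243, the CRE core at -136 to -131, C/EBP at -128 to -121 and kB at -44 to -35, counted from the annotated start with no position 0. The Osmr window held 1 match, AP-1 at 4 to 10, and the Lif window held 1, also AP-1. The windows of Il6st and Lifr held none of the 6 motifs, and no member's window held GAS or ISRE. The windows of Osmr and Lifr lie inside the gene spans given above, so the outermost starts of both genes were not searched. Of 32851 RefSeq windows of that length, 0.411% held the kB motif, 2.94% C/EBP, 7.51% the CRE core, 7.81% AP-1, 8.3% GAS and 3.44% ISRE. No motif matches overlapped in the windows of the members.

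Libraries held 17490689 to 18678543 estimated counts. The tables list no gene at 0 in all 3 controls, while 673 genes are at 0 in all 3 interferon-gamma libraries, so a gene silent in control has no values here. The label of intestinal epithelium was not borne out by the markers: of 13 epithelial genes 8 had a row, none above 0.58 TPM (a transcript level scaled for gene length and library) in any library, and Epcam and Cdx2 had no row. Mesenchymal markers, of which 8 of 9 had a row, summed to 3425 to 3612 TPM in interferon-gamma libraries and 3284 to 3461 TPM in controls, mostly from Vim, at 2826 to 2906 TPM with interferon-gamma and 2415 to 2572 TPM in control. They did not move together: Vim (log2 0.30) and Dcn (0.87) rose, while Col1a1 (-0.33), Col1a2 (-0.20), Col3a1 (-0.42), Pdgfra (-0.65) and Pdgfrb (-0.60) fell (edgeR adjusted p at most 0.00392). Lum was at most 0.18 TPM in any library. Leukocyte markers, of which 5 of 10 had a row, summed to 23.8 to 24.6 TPM with interferon-gamma and 26.9 to 32 TPM in controls, mostly from Cd14, with Ptprc at 0 in all 3 interferon-gamma libraries and at 0, 1 and 1 counts in controls. Endothelial markers, of which 2 of 4 had a row, summed to at most 0.27 TPM. The part of these markers in the results was not tested, and in bulk RNA a change in the number of cells cannot be told apart from a change in RNA per cell.

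Il6 and Osmr rose many-fold with interferon-gamma, Lif and Il6st rose by less than 1.5-fold, and Lifr did not pass the test. Tested with edgeR across 11423 genes, 4 of the 5 members rose and 0 fell (adjusted p threshold 0.05), where 19.9% of all genes tested rose and 18.1% fell. Il6 and Osmr, 2 of the 5, rose at least 2-fold, where 4.03% of all genes did. The split over all genes, 2278 higher and 2069 lower, moved with the scaling, to 1644 higher and 3124 lower on total counts and to 1775 and 2823 with upper-quartile factors, while the same number of members, 4, was called higher under both. The limma-voom and DESeq2 tests also called 0 members lower, and 0 had an unadjusted p under 0.05 and a fall. The median log2 fold change was 0.48 over the 5 members and 0.01 over all genes tested. The members were chosen with earlier results of these data known, so these counts and medians are a description. Il6, counted here, passed the low-count filter only through the interferon-gamma libraries.

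**Figure D1:**
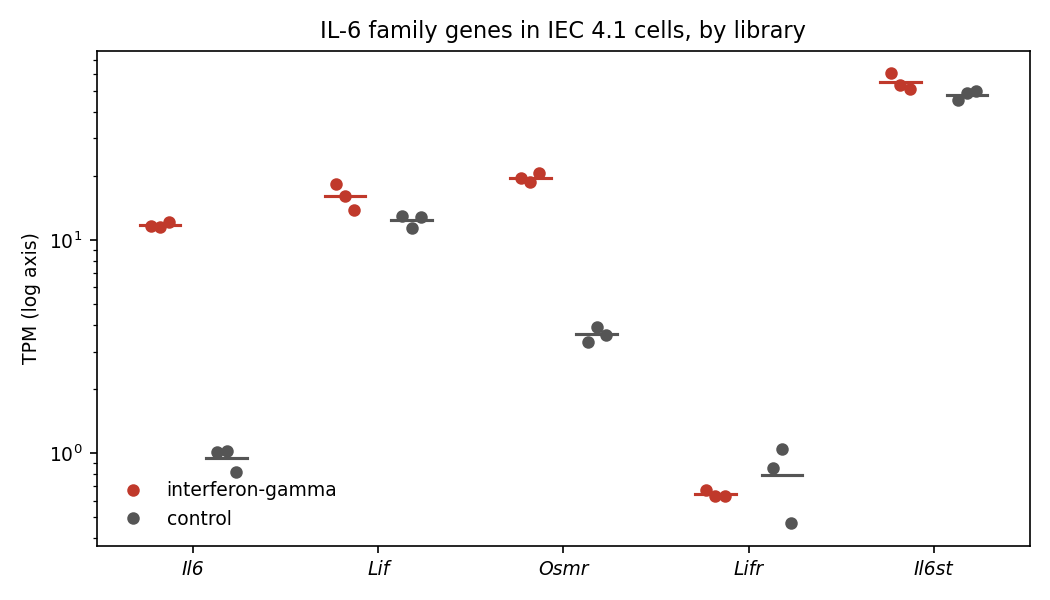
Level of each IL-6 family gene in TPM on a log axis, with 1 point per library, bars at the group means, interferon-gamma left and control right (n = 3 each). Il6 and Osmr lie far above control in all 3 interferon-gamma libraries, Lif and Il6st slightly above, and for Lifr the interferon-gamma points lie within the control range.

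Il6, a cytokine of inflammation and the acute phase, had 115, 120 and 118 counts in the interferon-gamma libraries and 10, 10 and 8 in the controls. Its level was 11.6, 11.5 and 12.1 TPM with interferon-gamma, against 1.01, 1.03 and 0.82 TPM in control. All 3 interferon-gamma libraries lay above all 3 controls, and the spread within each group was small beside the gap. The log2 fold change was 3.73 ± 0.097 (SE from the replicates' log2 CPM, counts scaled for library size), or 13.2-fold, with an edgeR adjusted p of 1.14e-12. That SE can be too small at such low control counts, and the limma-voom 95% interval was wider, from 3.19 to 4.18. Il6 passed the low-count filter only through the interferon-gamma libraries, and its call was also made with no filter. Of all genes tested, 0.875% had a log2 fold change at least as high.

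Lif encodes leukemia inhibitory factor, which signals through the Lifr product and gp130. Its level was 18.3, 16.2 and 13.8 TPM in the interferon-gamma libraries and 12.9, 11.4 and 12.8 TPM in the controls, from 616 to 814 and from 493 to 607 counts. The groups did not overlap, but interferon-gamma replicate 4 lay close to the highest control. Lif rose by 0.48 ± 0.128 on the log2 scale, 1.39-fold (edgeR adjusted p = 8.95e-05, limma-voom 95% interval 0.30 to 0.66). With 1 library left out at a time the log2 fold change ran from 0.39, without control replicate 3, to 0.56, without interferon-gamma replicate 4. With the replicate number as a block, which compares only the numbers that both groups share, it was 0.32. Lif was called higher in each of these fits. Tested against a 1.5-fold change, the rise of Lif did not pass (adjusted p = 1).

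Osmr, the chain that makes gp130 responsive to oncostatin M, had 1019, 1047 and 1065 counts with interferon-gamma and 183, 200 and 186 in control. Its level was 19.4, 18.8 and 20.6 TPM in interferon-gamma libraries, against 3.34, 3.93 and 3.59 TPM in control. The groups were far apart and the libraries of each group close together. Osmr rose by 2.55 ± 0.061 on the log2 scale, 5.86-fold (edgeR adjusted p = 3.34e-17), with a limma-voom 95% interval of 2.37 to 2.72. Of all genes tested, 1.54% had a log2 fold change at least as high.

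Lifr, the chain that binds LIF, is the neighbour of Osmr on chromosome 15. It had 60, 60 and 50 counts in the interferon-gamma libraries and 58, 72 and 51 in the controls, and the groups overlapped. Scaled for depth it was at 3.34, 3.30 and 2.94 CPM with interferon-gamma and at 3.08, 3.84 and 2.69 CPM in control. The log2 fold change was -0.0017 ± 0.155 (edgeR adjusted p = 0.995), and the limma-voom 95% interval of -0.35 to 0.37 leaves room for changes of that size in either direction. The log2 ratio of Osmr to Lifr TPM was 4.93 ± 0.0895 with interferon-gamma and 2.27 ± 0.575 in control (SD, n = 3 each), a difference of 2.66. The ratios themselves were 29, 29.8 and 32.7 with interferon-gamma and 3.93, 3.74 and 7.64 in control, and did not overlap. The exact two-sided permutation p was 0.1, the smallest that 3 against 3 allows, and 0.15 adjusted over the 3 ratios tested. From counts, which the deposited TPM of Lifr did not follow, the log2 difference was 2.54.

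Il6st, the shared chain gp130, was the most abundant member. Its level was 60.5, 53.3 and 51.2 TPM in interferon-gamma libraries and 45.5, 48.7 and 49.7 TPM in controls, from 3005 to 3598 and from 2813 to 2924 counts. The groups did not overlap, with interferon-gamma replicate 4 nearest to the controls. Il6st rose by 0.31 ± 0.054 on the log2 scale, 1.24-fold (edgeR adjusted p = 8.58e-05, limma-voom 95% interval 0.20 to 0.42). Like Lif, Il6st did not pass when tested against a 1.5-fold change (adjusted p = 1). In CPM, 48% of all genes tested had groups that did not overlap, as 4 of the 5 members did.

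**Figure D2:**
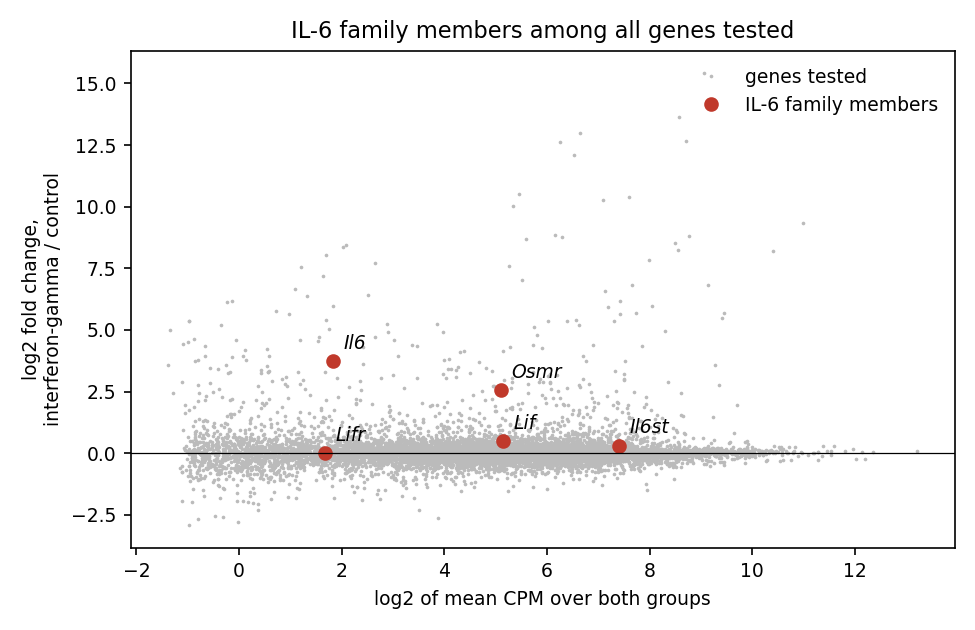
Log2 fold change of interferon-gamma over control against log2 mean CPM for the 11423 genes tested (grey) and the 5 IL-6 family members (red). Il6, at 3.73, and Osmr, at 2.55, stand above most genes of similar abundance, while Lif, Il6st and Lifr lie in or near the main cloud.

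The order of the levels differed between the groups. With interferon-gamma it was Il6st, Osmr, Lif, Il6 and Lifr, and no neighbours in that order overlapped in TPM. In control it was Il6st, Lif, Osmr, Il6 and Lifr, and there Il6, at 0.82 to 1.03 TPM, and Lifr, at 0.47 to 1.05 TPM, overlapped. The deposited TPM of Lifr did not follow its counts, which limits its place in this order. Osmr stood above Lif in every interferon-gamma library and below it in every control.

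The share of Osmr in the receptor chain mRNA was higher in every interferon-gamma library than in any control, which is given as a description. Over Il6st, Osmr, Lifr, Il6ra, Il11ra1 and Cntfr, the chains of the family measured here, the summed level was 97.9, 87.3 and 86.8 TPM in interferon-gamma libraries and 65.4, 67.3 and 70 TPM in controls. Osmr took 19.8%, 21.5% and 23.7% of it with interferon-gamma and 5.11%, 5.84% and 5.13% in control. Il6st took 61.8%, 61.1% and 59% with interferon-gamma and 69.5%, 72.3% and 71% in control, a lower share at a higher level. The ratio of Osmr to Il6st was 0.321, 0.352 and 0.402 in interferon-gamma libraries and 0.0735, 0.0808 and 0.0722 in controls, a log2 difference of 2.24 (exact two-sided permutation p = 0.1, the smallest possible, and 0.15 adjusted over 3 ratios). The ratio of Lifr to Il6st overlapped between the groups, at 0.0111, 0.0118 and 0.0123 with interferon-gamma and 0.0187, 0.0216 and 0.00946 in control (log2 difference -0.42, exact permutation p = 0.4, also after adjustment). From counts the log2 difference of Lifr to Il6st was -0.30.

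**Figure D3:**
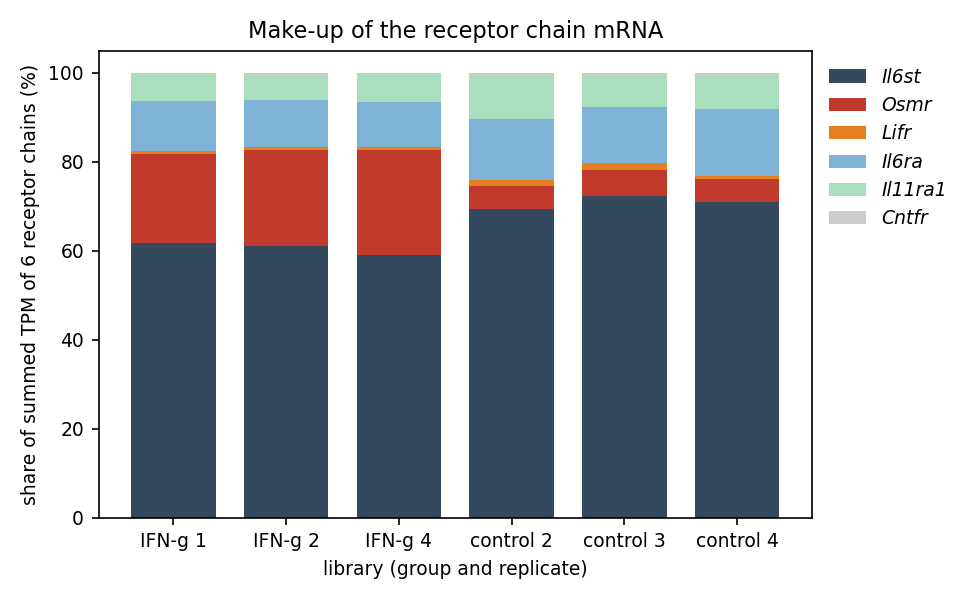
Share of each of 6 receptor chains in their summed TPM, with 1 stacked bar per library, interferon-gamma left and control right. The Osmr share is 19.8% to 23.7% with interferon-gamma and 5.11% to 5.84% in control.

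Of the other ligands of the family, 5 of 9 had a row, 4 were tested, 0 rose and 1 fell, beside 19.9% and 18.1% of all genes tested. Clcf1, a ligand of the ciliary neurotrophic factor receptor, fell by 0.36 in log2 units (edgeR adjusted p = 0.000258), with 29.1 to 35.2 TPM in interferon-gamma libraries and 42.4 to 44 TPM in controls. Cntf (log2 0.02) and Il11 (log2 0.18) had overlapping groups and adjusted p of 0.908 and 0.71. At an unadjusted p under 0.05 no ligand was higher, and limma-voom and DESeq2 called none higher. Osm, which encodes a ligand of the Osmr product in the mouse, had no row and was not analysed here, nor were Il27, Ebi3 and Il31.

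Of the other receptor chains 3 of 5 were tested and none passed. Il6ra, which binds IL-6, had 391, 348 and 304 counts with interferon-gamma and 333, 293 and 373 in control, a log2 fold change of 0.15 (edgeR adjusted p = 0.217, limma-voom 95% interval -0.05 to 0.35). Il11ra1 was at log2 0.09 (adjusted p = 0.655) and Cntfr, with at most 14.9 counts in any library, at 0.13 (adjusted p = 0.809). At an unadjusted p under 0.05 the number was also 0, and limma-voom and DESeq2 called none. Of the 3 genes linked to receptor shedding, 1 rose, beside 19.9% of all genes tested. This was Erap1, an aminopeptidase also known for trimming peptides for MHC class I. It was at 60.8 to 63.2 TPM with interferon-gamma and 18.3 to 20.6 TPM in control (log2 1.76, adjusted p = 3.26e-16). The proteases Adam10 (log2 0.04, edgeR adjusted p = 0.541) and Adam17 (log2 0.07, 0.419) had overlapping groups and were not called.

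Among the kinases, STATs and adaptors 7 of 11 rose and 1 fell, beside 19.9% and 18.1% of all genes tested. Stat3, the main transcription factor downstream of gp130, had 134, 121 and 121 TPM in interferon-gamma libraries and 22.7, 26.6 and 24.5 TPM in controls (log2 2.47 ± 0.049, edgeR adjusted p = 3.05e-19). The kinase gene Jak2 was called higher, at log2 0.45 (adjusted p = 6.16e-07). The kinase Tyk2 fell by 0.24 (adjusted p = 0.0227), a call lost with DESeq2 (0.0594), without interferon-gamma replicate 4 (0.123) and without control replicate 2 (0.0765). Jak1, Stat5b, Gab1 and Grb2 were called at log2 0.17, 0.17, 0.15 and 0.15, but none was called on total counts without scaling factors (adjusted p 0.117, 0.191, 0.315 and 0.269) or without control replicate 4 (0.106, 0.0966, 0.2 and 0.215). Gab1 passed narrowly in the reported one (adjusted p = 0.0492).

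Inhibitors of the pathway rose in 8 of 9 tested genes, with 0 falls, beside 19.9% higher and 18.1% lower among all genes tested. Socs3, which blocks gp130 signalling, had 3480, 3405 and 3044 counts with interferon-gamma and 423, 421 and 449 in control, and rose by 3.03 ± 0.041 on the log2 scale (edgeR adjusted p = 2.41e-20). Socs1, which inhibits Janus kinases, rose by 3.01, Cish by 1.66 and Socs2 by 1.60. Cish and Socs2 had few counts, at most 52 and 27 in any library, and Socs2 passed the low-count filter only through the interferon-gamma libraries. The tyrosine phosphatase Ptpn6 rose by 0.36 (adjusted p = 0.00272). Of the 8 calls, that of Ptpn2 (log2 0.18) did not hold on total counts (adjusted p = 0.157) or upper-quartile factors (0.102), nor without interferon-gamma replicate 4 (0.108), control replicate 3 (0.0874) or control replicate 4 (0.0968). That of Ptpn1 (log2 0.20) was lost on total counts (0.0601).

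Of 17 genes listed as targets of the pathway, 14 were tested, 11 rose and 1 fell, beside 19.9% and 18.1% of all genes tested. Cebpd, a transcription factor of the acute phase, was at 86, 78.8 and 72.1 TPM with interferon-gamma and 18.8, 16.8 and 18.1 TPM in control (log2 2.25 ± 0.093, edgeR adjusted p = 1.45e-16). Bcl3, an IkB family protein, rose by 1.33, and Lcn2, which encodes the iron-withholding protein lipocalin, by 1.55. Saa3, an acute-phase apolipoprotein, had 45, 46 and 38 counts with interferon-gamma and 5, 4 and 5 in control (log2 3.26). Junb (0.46), Il4ra (0.40), Pim1 (0.42), Timp1 (0.36), Cebpb (0.35) and Bcl6 (0.53) rose by less than 1.5-fold. Vegfa, which encodes an angiogenic growth factor, fell by 0.25 (adjusted p = 0.00208). Icam1, which encodes an adhesion molecule, had 20, 18 and 13 counts with interferon-gamma and 7, 8 and 11 in control (log2 1.05, adjusted p = 0.0154). Its call, 1 of the 11, was lost with DESeq2 (0.116), with the replicate block (0.129) and without interferon-gamma replicate 1 (0.0687), control replicate 2 (0.0618) or control replicate 3 (0.0518). Saa3 and Icam1 passed the low-count filter only through the interferon-gamma libraries.

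Genes that act on Il6 transcription or on the decay of its mRNA were higher in 5 of 7 cases and lower in 1. Among all genes tested 19.9% were higher and 18.1% lower. Nfkbiz, whose product is needed for Il6 transcription in mouse macrophages, rose by 1.86 ± 0.054 on the log2 scale, with 3385, 3596 and 3092 counts in interferon-gamma libraries and 947, 965 and 1047 in controls (edgeR adjusted p = 6.8e-17). Arid5a, whose product stabilises Il6 mRNA, rose by 0.95 (adjusted p = 4e-10). Zc3h12a, which encodes the ribonuclease Regnase-1 that degrades Il6 mRNA, rose by 0.50 (adjusted p = 5.91e-06), and Zfp36, which encodes a protein that destabilises cytokine mRNAs, by 1.87 (adjusted p = 7.52e-13). The NF-kB subunit gene Nfkb1 rose by 0.39, while Rela fell by 0.15 (adjusted p = 0.0345). The Rela call was lost without interferon-gamma replicate 2 (0.0755), interferon-gamma replicate 4 (0.0788) or control replicate 2 (0.167).

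Over all 51 tested genes of these lists, 32 rose and 4 fell, beside 19.9% and 18.1% of all genes tested, and the median log2 fold change was 0.27. The lists were chosen with earlier results of these data known, so these counts describe the lists and are no test of them. Of the 51, 3 passed the low-count filter only through the interferon-gamma libraries, and with no filter 31 rose and 4 fell.

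**Figure D4:**
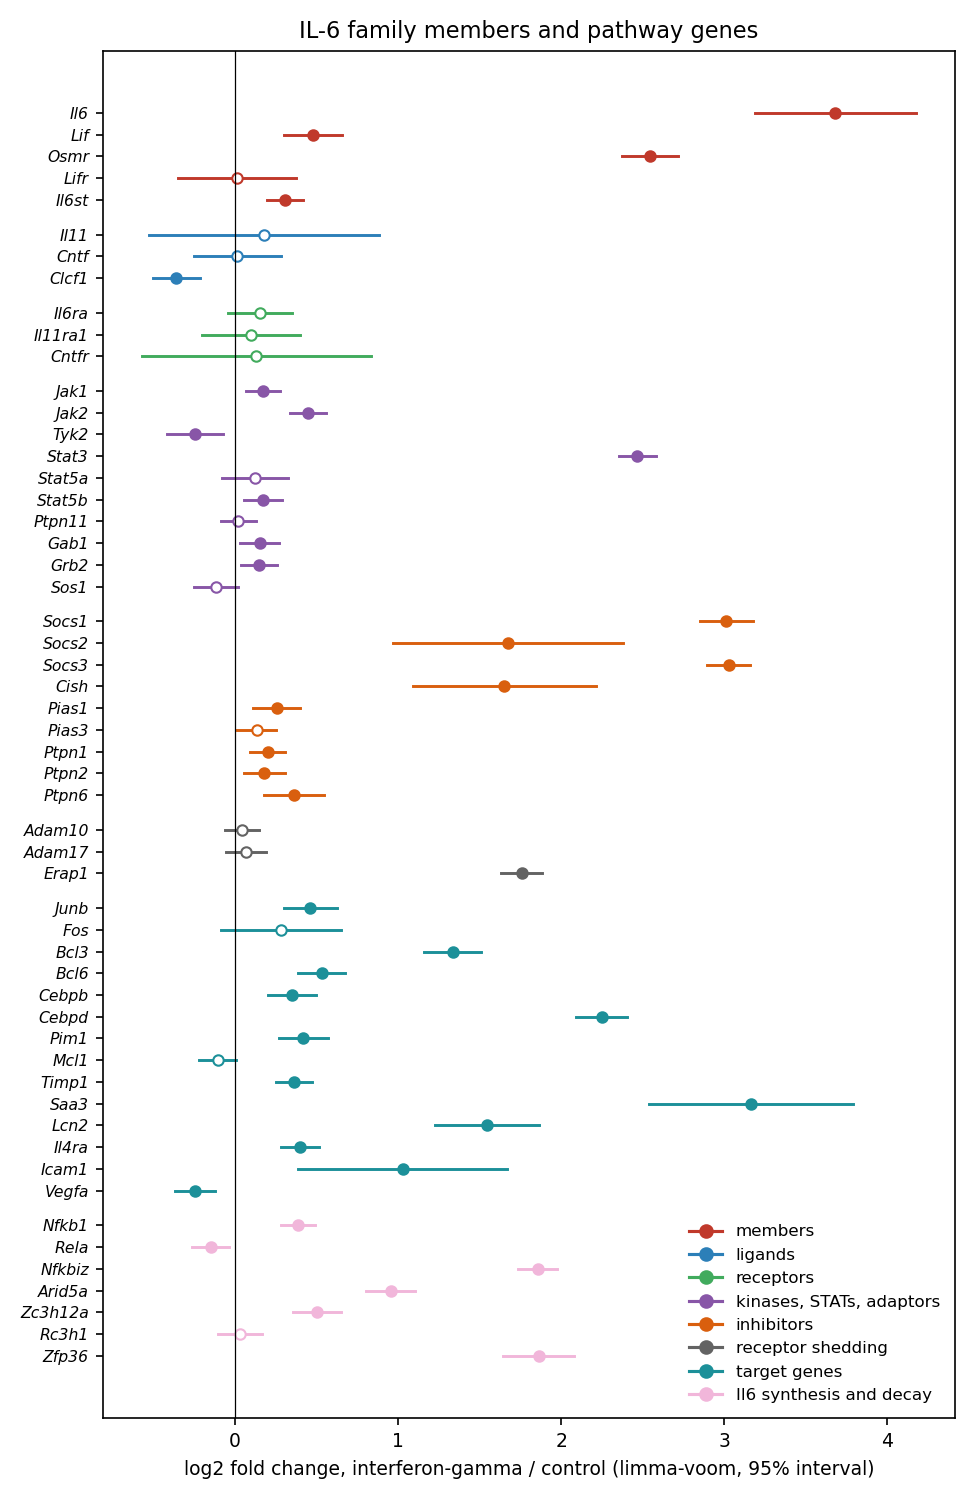
Log2 fold change of interferon-gamma over control with its 95% interval (limma-voom) for the 5 members and 49 of the 51 tested pathway genes, coloured by role. Filled points had an edgeR adjusted p under 0.05. Il6, Osmr, Stat3, Socs1, Socs3, Cebpd and Saa3 lie above 2, and the other ligands and receptor chains lie at or below 0.18.

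Across all genes tested, those whose log2 CPM profiles over the 6 libraries lay nearest to each member were listed, by Euclidean distance after centring each profile on its mean. Nearest to Il6 were Casp4, Tmem140 and Fas (distances 0.107, 0.229 and 0.253). Nearest to Osmr were Ripk2, Snx10 and Cyp1b1 (0.0473, 0.158 and 0.166). Nearest to Lif were Jund, Lrrc61 and Prr13 (0.108, 0.128 and 0.14), to Il6st Acvr1b, Nfe2l1 and P4ha1 (0.0471, 0.0474 and 0.0639), and to Lifr Zfp119a, Ager and E130311K13Rik (0.132, 0.146 and 0.149). With 2 groups of 3 libraries, these distances mostly reflect a like size of change and a like spread, and they describe these libraries only.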

How the data were processed

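Per the submitters' processing notes, HISAT, HISAT2 and the builds GRCm38.p6 and mm10 are listed, without stated roles. No source used here names the counting program. Read counts were deposited as estimated counts, with 6.8% to 7.37% of genes not whole per library, though those of the 5 members were whole in all libraries. TPM values, deposited per the file headers, were used for levels, ratios and shares, and FPKM values, deposited per the file headers, were not used. No column belonged to other samples.

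Counts rounded to whole numbers went into edgeR 4.0.16 (R 4.3.3). Of all genes 11423 passed filterByExpr at a minimum count of 10 and 3278 did not. Libraries were scaled by TMM factors between 0.972 and 1.033, and glmQLFit (robust=TRUE) with glmQLFTest gave p-values, adjusted by Benjamini-Hochberg across the whole table and called under 0.05. Standard errors came from the replicates' log2 CPM (prior count 2), which can be too small for low counts. Intervals of 95% came from limma-voom (limma 3.58.1). Alternatives were DESeq2 1.42.0, limma-voom, other scalings and filters, robust=FALSE, a threshold of 0.01, glmTreat at 1.5-fold, a replicate block and left-out libraries. The same settings for pathway genes and the nearest genes were added after the data were examined. The fit was tested on simulated data. Ratios were compared with exact permutation tests. Tables, tests of ratios and figures used scipy 1.17.1, pandas 2.3.3, matplotlib 3.10.9 and numpy 2.4.6 under Python 3.11.15. The 5 members and the lists were chosen with earlier results of these data known. The text names the members, genes of the lists where they help, and the 3 nearest genes of each member. Values of 2 listed genes are not reported here.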

Additional observations from a re-analysis of the deposited data

How the results depend on the processing

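Il6 and Osmr kept their direction and their call under every test, scaling, filter, block and left-out library tried, with log2 fold changes of 3.61 to 3.81 and 2.48 to 2.62. Lif (0.32 to 0.56) and Il6st (0.24 to 0.35) did so except under glmTreat at 1.5-fold (adjusted p = 1 at 0.48 and at 0.31), which called 2 members, 14 pathway genes higher and 0 lower, and 536 genes higher and 166 lower in all. The sign of Lifr was not stable: 0.013 with limma-voom, 0.11 with the replicate block, 0.05 without interferon-gamma replicate 4 and 0.14 without control replicate 3, from -0.12 to 0.14 over left-out libraries, never called. On total counts 3124 genes were called lower and 1644 higher, and with upper-quartile scaling 2823 and 1775, against 2069 and 2278 in the reported fit. The median log2 fold change of all genes moved by less than 0.1 with each scaling. At a threshold of 0.01, 2 pathway genes were lower. Over left-out libraries 27 to 31 pathway genes were higher and 3 to 4 lower, and 4 members were higher. The pathway counts also moved with the scaling, to 26 higher and 6 lower on total counts. With upper-quartile scaling they were 27 and 6, against 32 and 4 in the reported fit.

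Pathway genes that were not called also changed sign. Il11 was at -0.18 with the replicate block, -0.012 without interferon-gamma replicate 2 and -0.081 without control replicate 3 (left-out libraries -0.081 to 0.43). Cntf was at -0.032 with upper-quartile scaling, -0.050 on total counts, -0.00051 with the replicate block, and -0.064 to 0.13 over left-out libraries. Il6ra was at -0.011 and Il11ra1 at -0.061 with the replicate block, and Il11ra1 at -0.016 to 0.23 over left-out libraries. Cntfr was at -0.065 to 0.37 over left-out libraries. Among the nearest genes, Zfp119a was at 0.12 with the replicate block, and over left-out libraries Zfp119a was at -0.15 to 0.12, Ager at -0.18 to 0.046 and E130311K13Rik at -0.0057 to 0.23. Lrrc61 was not called with DESeq2 (adjusted p = 0.103), the block (0.139), or without interferon-gamma replicate 1 (0.0592) or control replicate 3 (0.0632).

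The groups share replicate numbers 2 and 4, whose libraries' deviations from their group means correlated at 0.13 and -0.09 across genes. Libraries with unlike numbers correlated at -0.15 to 0.16. These values cannot show whether the numbers pair the samples, and the reported fit used no pairing. With the number as a block 2133 genes were higher and 1793 lower, and 4 members stayed higher. Only the libraries numbered 2 and 4 inform the group difference in that fit, so it does not check the full design. The log2 differences of the ratios of Osmr to Il6st, Osmr to Lifr and Lifr to Il6st were 2.24, 2.54 and -0.30 from counts, and 2.16 to 2.32, 2.47 to 2.99 and -0.78 to -0.18 over left-out libraries. The control counts of Il6 and those of Lifr limit the precision of both.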

Other observations

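The deposited TPM of Lifr did not follow its counts across libraries. Counts per TPM unit, which vary with the transcript lengths assigned to a gene, were 89.6, 95.2 and 79.4 in interferon-gamma libraries and 68.2, 68.6 and 109 in controls. For Osmr they were 52.4, 55.8 and 51.8 with interferon-gamma and 54.8, 50.9 and 51.8 in control, and for Il6st 59.4, 63.1 and 58.7 with interferon-gamma and 62, 57.8 and 58.8 in control. The tables list 10 transcripts for Lifr, 6 for Osmr and 2 for Il6st. The test of Lifr used counts, while its TPM ratios, its share and its place in the order of levels carry this spread. Cntfr, another chain of the share, had 50, 36.3 and 51.9 counts per TPM unit with interferon-gamma and 19.5, 42.3 and 48.1 in control. The share of Cntfr, at most 0.63% in any library, carries a like spread. The deposited tables place Osmr on the plus strand, while RefSeq and GENCODE M21 place it on the minus strand.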
